A study of Mus musculus with 12 samples.

Results

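The genes described here are 10 enzymes of glycolysis and lactate formation, Hk1, Hk2, Gpi1, Pfkl, Pfkp, Aldoa, Tpi1, Pgk1, Pkm and Ldha, in mouse kidney after cisplatin, pregnenolone carbonitrile or both. They were found by matching these symbols to the gene names of the deposited table, which lists 52636 genes. All 10 were found, in 11 rows, because Aldoa has 2 identifiers. The rows were matched by symbol, but the members were chosen with earlier results of these data known.

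Kidney RNA was sequenced in 4 groups of mice, with 3 libraries per group. All mice were wild-type C57BL/6 males, 8 weeks old. The control group received corn oil by mouth and saline by injection. The PCN group received pregnenolone carbonitrile, a synthetic steroid and agonist of the mouse pregnane X receptor, at 40 mg/kg by mouth each day, for 4 days before and 3 days after the day of cisplatin. Cisplatin, an anticancer platinum compound toxic to the renal tubule, was injected once into the peritoneum at 20 mg/kg in the cisplatin group, and the cisplatin+PCN group received both drugs. Kidneys were collected 4 days after that injection. The submitters' treatment text lists the cisplatin group both with PCN pretreatment and with oil, so the groups follow the library titles. The groups held 6 to 8 mice each, and the labels do not say that each library is a different mouse, so p-values reflect only how these libraries vary, which may be technical.

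Glycolysis splits glucose into pyruvate, and lactate dehydrogenase can then turn pyruvate into lactate. Hexokinase, phosphofructokinase and pyruvate kinase catalyse its practically irreversible steps, and each is made from several genes with different tissue patterns and regulation. In the healthy kidney the distal segments are the main users of glucose, while the proximal tubule burns fatty acids and other fuels and makes glucose. Several glycolytic genes can be switched on by the hypoxia-inducible factors and by Myc, which bind short sequences with cores such as ACGTG and CACGTG.

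Values are FPKM (fragments per kilobase of gene, scaled per library), in which levels of different genes can be set side by side as far as the gene length used is right. Reads assigned to genes numbered from 18914607 to 26530485 per library, and an FPKM of 1 stood for 18.7 to 27.2 reads per kilobase of gene. The library total that this scale implies was 0.952 to 1.11 times the assigned reads. It lay below them in every control and PCN library and above them in every cisplatin library. Replicates within a group differed by more than sampling noise, with a chi-square per gene from 4.97 to 78.7. Markers of the tubule were present in control, where the summed FPKM of 10 proximal tubule genes lay between 4279 and 4478. With cisplatin it lay between 604 and 752, and all 10 of these genes were lower by limma's test. In that test 32% of all tested genes were higher and 31.9% lower. The sum of 6 markers of the thick ascending limb and distal tubule went from between 1623 and 1896 FPKM to between 854 and 1232, with 6 of 6 lower. Of 10 neutrophil markers 3 were tested and higher. The sum of all 10 went from between 2.96 and 4.37 to between 22.1 and 35.6 FPKM. Mpo, on that list, stood at 0 in every library. Of 10 macrophage markers 7 were tested, 2 higher and 1 lower. Of 6 fibroblast markers 4 were higher and 0 lower. Their sum went from between 30.2 and 55.7 to between 64.8 and 76.0 FPKM. Of 5 tested collecting duct markers 4 were lower and 0 higher, but the summed ranges of all 6 on that list overlapped. Podocyte and endothelial markers had calls in both directions. Summed erythroid markers lay between 318 and 1187 FPKM in control and between 0.519 and 6.94 with cisplatin, with 5 of 6 tested and lower. Markers of skeletal muscle, a tissue rich in glycolytic enzymes, summed to at most 1.44 FPKM in the control and cisplatin libraries. How far the mixture of cells took part in the differences below was not tested, and in bulk tissue fewer cells of a type and less RNA per cell cannot be told apart.

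The stretches upstream of 4 members are shown because these genes went in different directions with cisplatin. Hk2 was higher, Pfkl and Pgk1 were lower, and Ldha did not pass the test. Each stretch is the 150 bases before a RefSeq transcription start in build GRCm38.p6, 5′ to 3′ on the gene's strand, and capitals mark every ACGTG or its reverse complement CACGT.
Hk2 (chr6:82774455-82774604, minus strand): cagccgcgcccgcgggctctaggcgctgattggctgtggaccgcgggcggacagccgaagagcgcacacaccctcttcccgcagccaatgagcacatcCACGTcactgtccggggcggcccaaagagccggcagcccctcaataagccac
Pfkl (chr10:78009808-78009957, minus strand): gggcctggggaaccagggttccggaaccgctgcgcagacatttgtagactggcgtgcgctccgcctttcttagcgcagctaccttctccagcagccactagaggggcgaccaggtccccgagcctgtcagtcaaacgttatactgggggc
Pgk1 (chrX:106186950-106187099, plus strand): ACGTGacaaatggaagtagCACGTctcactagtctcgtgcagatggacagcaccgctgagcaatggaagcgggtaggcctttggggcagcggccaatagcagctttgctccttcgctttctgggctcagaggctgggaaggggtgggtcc
Ldha (chr7:46845654-46845803, plus strand): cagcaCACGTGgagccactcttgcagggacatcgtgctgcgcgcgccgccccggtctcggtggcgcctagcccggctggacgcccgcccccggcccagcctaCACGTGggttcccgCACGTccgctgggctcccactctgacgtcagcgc
The stretch of Ldha held these letters in 3 places, 2 of which read CACGTG, and that of Pgk1 in 2 places. That of Hk2 held them in 1 place and that of Pfkl in none. Ldha has another RefSeq start, at 46847082, whose 150 upstream bases, not shown, held them in none. All 10 members were in the RefSeq table, with 15 windows from 250 bases before to 50 bases after a start. ACGTG, searched on both strands, lay in 7 of the 15 windows and in a window of 6 of the 10 members, against 19.62% of all 32851 windows and 21.78% of 27025 genes. The 2 Aldoa windows among the 7 overlap and hold the same place. Members also have more windows per gene than all genes do, which gives them more room for a match. CACGTG, which contains ACGTG, lay in a window of 1 member, against 8.093% of genes. GGGCGG, the letters of a GC box, lay in a window of 9 members, against 38.2% of genes. TATAAA lay in none of the 15 windows, against 13.62% of all windows. These are matches of letters and do not show that a factor was bound. Other forms of these cores were not searched, so a stretch without ACGTG may still hold a binding site.

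In limma's test on log2(FPKM + 1) over 13540 genes, 3 of the 10 members were higher with cisplatin than in control and 3 were lower, at an adjusted p under 0.05. Hk2, Pkm and Pfkp were the higher ones, and Tpi1, Pfkl and Pgk1 the lower ones. Of all tested genes 32% were higher and 31.9% lower in this comparison, so the members' shares lay near the background. Their median log2 change was 0.04, beside 0.01 over all tested genes. The cisplatin and control libraries did not overlap for the 6 genes that passed and overlapped for Hk1, Gpi1, Aldoa and Ldha. The share of all tested genes that separate in this way was not counted, so this separation is no result about the members. All 10 members passed the minimum of 1 FPKM in at least 3 of 12 libraries, Hk2 only through libraries with cisplatin. Intervals here are at the 95% level.

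**Figure D1:**
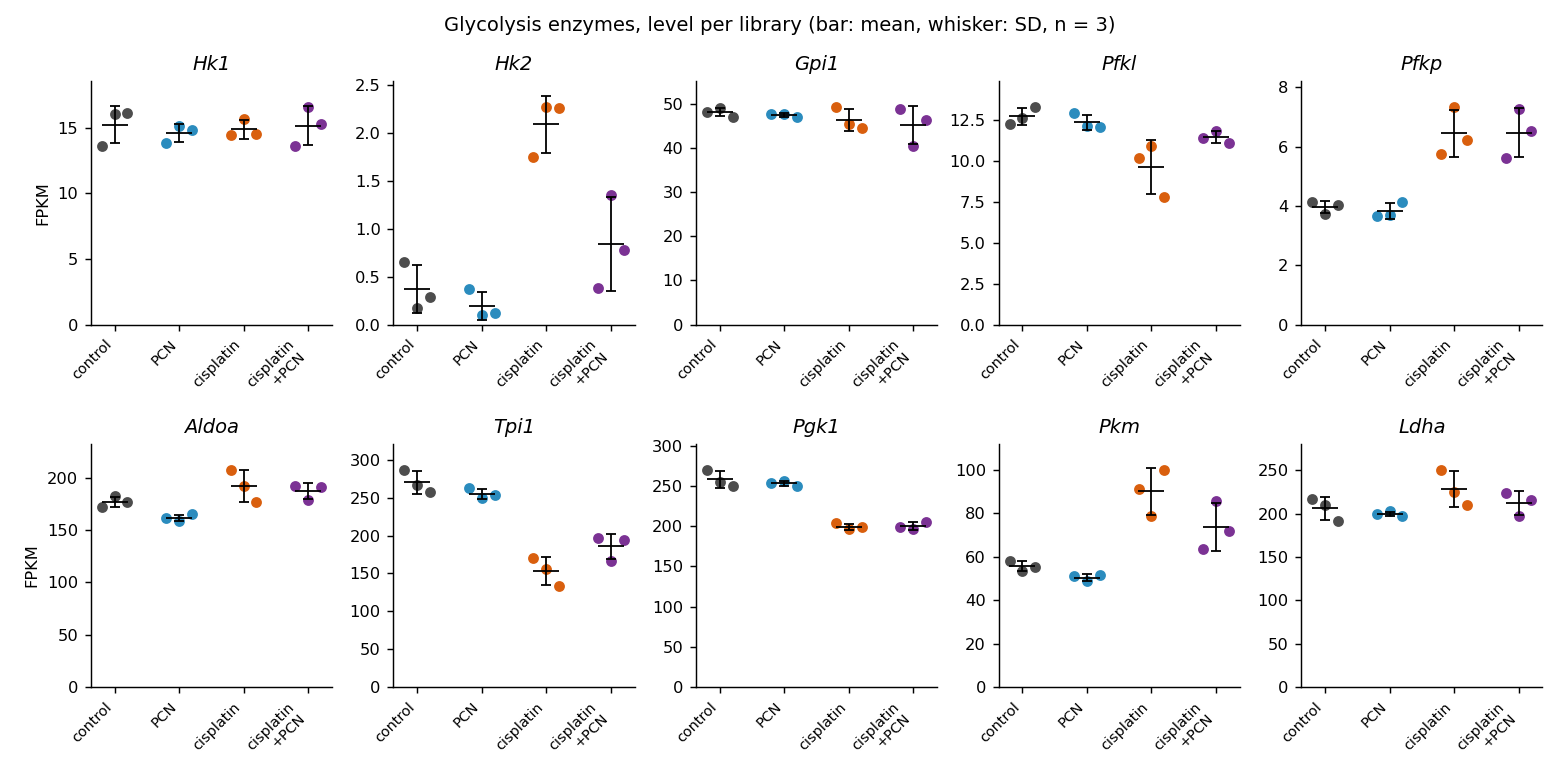
Level of each of the 10 enzymes in FPKM (y axis from 0, scaled per gene) in the 12 libraries by group (x axis). Points are libraries, horizontal bars are group means and whiskers are SDs of 3 libraries. Hk2, Pfkp and Pkm lie higher in the cisplatin libraries than in control, and Tpi1, Pgk1 and Pfkl lie lower.

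Hexokinases trap glucose in the cell as glucose 6-phosphate, and Hk1 is the widely expressed form of the enzyme. Hk1 (ENSMUSG00000037012, chromosome 10, 62268855 to 62379908) stood at 13.6, 16.0 and 16.1 FPKM in control and at 13.8, 15.1 and 14.9 with PCN. With cisplatin it stood at 14.4, 15.7 and 14.5 FPKM, and with cisplatin+PCN at 13.6, 16.6 and 15.3. All 4 groups overlapped. The change with cisplatin was -0.03 (interval -0.22 to 0.16), so no difference was detectable within that range.

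Hk2, the inducible form, which is low in most adult tissues, was the least abundant member. Hk2 (ENSMUSG00000000628, chromosome 6, 82725025 to 82774454) stood at 0.654, 0.176 and 0.285 FPKM in control and at 0.366, 0.102 and 0.124 with PCN. It stood at 1.75, 2.27 and 2.26 FPKM with cisplatin and at 0.380, 1.36 and 0.781 with cisplatin+PCN. Every cisplatin library lay above every library of the other 3 groups. These values rested on 24 to 73 reads per library in control, 12 to 50 with PCN, 201 to 367 with cisplatin and 57 to 206 with cisplatin+PCN. The mean rose from 0.372 ± 0.250 to 2.09 ± 0.297 FPKM (SD, n = 3), a ratio of 5.63, with a log2 change of 1.18 ± 0.19 (SE, adjusted p = 0.000305). None of its 50-base windows was shared with transcripts of another gene in GENCODE M21. The genes whose pattern over the 9 libraries outside control was most like that of Hk2 were Msn, which links actin to the cell membrane, and Marcksl1, an actin-binding protein gene. Their root mean square differences from Hk2 on the log2(FPKM + 1) scale, each gene centred on its control mean, were 0.150 and 0.151.

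Gpi1 encodes glucose phosphate isomerase, which turns glucose 6-phosphate into fructose 6-phosphate. Gpi1 (ENSMUSG00000036427, chromosome 7, 34201330 to 34230336) stood at 48.1, 49.0 and 47.1 FPKM in control and at 47.7, 47.7 and 47.0 with PCN. It stood at 49.2, 45.4 and 44.5 FPKM with cisplatin and at 48.8, 40.4 and 46.3 with cisplatin+PCN. All 4 groups overlapped, and the change with cisplatin was -0.05 (interval -0.22 to 0.11). Of its 50-base windows 25.3% also occurred in transcripts of other genes, so some of its reads could belong to those.

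Phosphofructokinase commits the sugar to glycolysis, and its liver form Pfkl and platelet form Pfkp went in opposite directions. Pfkl (ENSMUSG00000020277, chromosome 10, 77986947 to 78010083) stood at 12.3, 12.6 and 13.3 FPKM in control and at 12.9, 12.1 and 12.1 with PCN. It stood at 10.2, 10.9 and 7.76 FPKM with cisplatin and at 11.4, 11.8 and 11.1 with cisplatin+PCN. The cisplatin libraries lay below all others, the lowest being replicate 3. The mean fell from 12.7 ± 0.518 to 9.60 ± 1.63 FPKM (SD, n = 3), and the log2 change was -0.38 ± 0.10 (adjusted p = 0.00555).

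Pfkp (ENSMUSG00000021196, chromosome 13, 6579768 to 6648777) stood at 4.14, 3.74 and 4.02 FPKM in control and at 3.66, 3.69 and 4.15 with PCN. It stood at 5.76, 7.33 and 6.24 FPKM with cisplatin and at 5.60, 7.26 and 6.54 with cisplatin+PCN. Every library with cisplatin lay above every library without it, and the groups with and without PCN overlapped. The mean rose from 3.96 ± 0.206 to 6.44 ± 0.804 FPKM (SD, n = 3), a log2 change of 0.58 ± 0.10 (adjusted p = 0.000366). The gene length behind this FPKM, 13401 bases, is 3.23 times that of its longest coding transcript, 4145 bases, and 17.1% of the windows of that transcript also occurred in transcripts of the neighbouring gene Pitrm1. The level of Pfkp against other genes is therefore uncertain.

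Aldolase splits the phosphorylated sugar into 2 triose phosphates, and Aldoa is the form of muscle and red cells. Aldoa (ENSMUSG00000030695, chromosome 7, 126795234 to 126808905) stood at 172, 182 and 177 FPKM in control and at 161, 159 and 165 with PCN. It stood at 208, 192 and 177 FPKM with cisplatin and at 192, 179 and 191 with cisplatin+PCN. All PCN libraries were the lowest, cisplatin replicate 3 lay within the control range, and the other 2 cisplatin libraries lay above it. The change with cisplatin was 0.11 (interval -0.04 to 0.27, adjusted p = 0.179). A second row for Aldoa (ENSMUSG00000114515, chromosome 7, 126800790 to 126809108) overlaps the first, held at most 8 reads in any library and stayed under the expression minimum.

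Tpi1 encodes triose phosphate isomerase, which interconverts the products of aldolase, and had the largest fall among the members with cisplatin. Tpi1 (ENSMUSG00000023456, chromosome 6, 124810586 to 124814296) stood at 287, 266 and 257 FPKM in control and at 262, 249.9 and 253 with PCN. It stood at 171, 156 and 133 FPKM with cisplatin and at 197, 167 and 195 with cisplatin+PCN. Every library with cisplatin lay below every library without it. The mean fell from 270.2 ± 15.0 to 154 ± 18.8 FPKM (SD, n = 3), 0.568 times the control mean, with a log2 change of -0.82 ± 0.10 (adjusted p = 3.39e-05).

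Pgk1 encodes phosphoglycerate kinase, which makes the first ATP that the pathway gains. Pgk1 (ENSMUSG00000062070, chromosome X, 106187100 to 106203699) stood at 269.97, 254 and 250.3 FPKM in control and at 254, 256.5 and 250.04 with PCN. It stood at 204, 196 and 198 FPKM with cisplatin and at 199, 196 and 205 with cisplatin+PCN. The libraries with and without cisplatin formed separate ranges, and within each the groups with and without PCN overlapped. The mean fell from 258 ± 10.4 to 199 ± 3.93 FPKM (SD, n = 3), a log2 change of -0.37 ± 0.06 (adjusted p = 0.000229). Of its 50-base windows 68% also occurred in transcripts of other genes, mostly the near copy Pgk1-rs7, so its reads could be split between genes.

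Pkm encodes the pyruvate kinase of muscle and of most other tissues, whose M1 and M2 forms come from alternative exons that a table of genes cannot tell apart. Pkm (ENSMUSG00000032294, chromosome 9, 59656368 to 59679375) stood at 58.1, 53.6 and 55.2 FPKM in control and at 51.1, 48.8 and 51.6 with PCN. It stood at 91.3, 78.9 and 100.1 FPKM with cisplatin and at 63.6, 85.5 and 71.8 with cisplatin+PCN. Every library with cisplatin lay above every library without it, and those with both drugs overlapped the cisplatin group, with 2 of the 3 below it. The mean rose from 55.6 ± 2.29 to 90.1 ± 10.7 FPKM (SD, n = 3), 1.62 times the control mean, with a log2 change of 0.68 ± 0.11 (adjusted p = 0.000278). Of its windows 34.4% also occurred in transcripts of other genes. The genes most like Pkm over the 9 libraries outside control were Ric8a, a chaperone of G protein subunits (root mean square difference 0.0878), and Dsg2, a desmosome protein gene (0.0928).

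Ldha encodes the A subunit of lactate dehydrogenase, the form that prevails in muscle. Ldha (ENSMUSG00000063229, chromosome 7, 46841475 to 46855627) stood at 217, 209 and 192 FPKM in control and at 199, 203 and 197 with PCN. It stood at 251, 225 and 209 FPKM with cisplatin and at 224, 197 and 215 with cisplatin+PCN. The groups overlapped, with cisplatin replicate 3 inside the control range and the other 2 cisplatin libraries above it. The change with cisplatin was 0.15 (interval -0.04 to 0.33, adjusted p = 0.149). Ldha passed when the libraries were rescaled without the highest genes (adjusted p = 0.0475) and in limma-voom on recovered reads (0.0180), and Aldoa passed in limma-voom (0.0296). Array weights, which give deviant libraries less say, also passed both, at adjusted p = 0.0162 for Ldha and 0.0342 for Aldoa. The genes most like Ldha were Orc5, a subunit of the origin recognition complex (0.0345), and Lyar, a nucleolar protein gene (0.0504).

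In control, the order of levels per length was Tpi1, Pgk1, Ldha, Aldoa, Pkm, Gpi1, Hk1, Pfkl, Pfkp and Hk2, from 270.2 ± 15.0 down to 0.372 ± 0.250 FPKM (SD, n = 3). Tpi1 and Pgk1 overlapped, and every other neighbouring pair was separate. With cisplatin the highest mean was that of Ldha, at 228 ± 20.7 FPKM, and Tpi1 was in place 4, behind Pgk1 and Aldoa. With the length of the longest coding transcript in place of the deposited gene length, Aldoa took place 2 and Pgk1 place 4 in control, so the order among the most abundant members depends on the length used.

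PCN without cisplatin moved none of the 10 members past the threshold. The count over all 13540 genes was also 0 in each direction by limma's test, 0% higher and 0% lower, with 438 genes and 0 members at an unadjusted p under 0.05. Log2 changes of the members lay between -0.19 for Hk2 and -0.02 for Gpi1, with a median of -0.05 beside 0.00 over all tested genes, and each adjusted p was 1. For Aldoa the PCN and control libraries did not overlap (162 ± 3.182 against 177 ± 4.95 FPKM, SD, n = 3). The same was true of Pkm (50.5 ± 1.47 against 55.6 ± 2.29 FPKM). Their log2 changes were -0.13 and -0.14. With 3 libraries against 3, full separation gives no less than p = 0.1 in an exact two-sided permutation test. The share of all tested genes that separate in this way was not counted, so no effect of PCN on these genes is shown.

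In the injured kidney, Hk2 was lower when PCN was also given, and no other member passed the test. By limma's test 1 of 10 members was lower with cisplatin+PCN than with cisplatin and 0 were higher, where 7.61% of all tested genes were lower and 7.97% higher. These background counts moved with single libraries: 1079 genes were higher and 1031 lower with all libraries, 294 and 286 without cisplatin replicate 3, 303 and 293 without cisplatin+PCN replicate 3, 414 and 391 without cisplatin replicate 1, 562 and 613 without cisplatin+PCN replicate 1, and 1706 and 1684 without cisplatin replicate 2. With only the groups compared they were 0 and 1, and with array weights 3301 and 3561. Hk2 stood at 0.839 ± 0.490 FPKM with both drugs (SD, n = 3), 0.401 times its mean with cisplatin alone, and its log2 change was -0.78 ± 0.19 (adjusted p = 0.0258). The libraries with both drugs spread widely, from 0.380 FPKM in replicate 1 to 1.36 in replicate 2. This call was lost without cisplatin replicate 1 (adjusted p = 0.0504) or 3 (0.0879) and without cisplatin+PCN replicate 1 (0.0677) or 3 (0.0752). It was also lost with a pseudocount of 0.1 (0.0833), with no expression minimum (0.0627) and with only the 6 libraries compared in the fit (0.126). Of the 10 proximal tubule markers 7 were higher with both drugs than with cisplatin, with a sum between 687 and 1483 FPKM, and their part in the difference was not tested. None of the 3 tested neutrophil markers passed in this comparison. The summed range of all 10 neutrophil markers with both drugs, 5.15 to 29.5 FPKM, overlapped that with cisplatin.

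Among the members that cisplatin had changed, values with both drugs lay between control and cisplatin for Pkm, Tpi1 and Pfkl, without passing the test against cisplatin. Pkm stood at 73.7 ± 11.1 FPKM with both drugs (SD, n = 3), a log2 change of -0.29 against cisplatin (interval -0.53 to -0.05, adjusted p = 0.0953). Tpi1 stood at 186 ± 16.7 FPKM, a change of 0.28 (interval 0.06 to 0.50, adjusted p = 0.0791). Pfkl stood at 11.4 ± 0.374 FPKM, a change of 0.24 (interval 0.03 to 0.46, adjusted p = 0.116), and its cisplatin and cisplatin+PCN libraries did not overlap. These 3 calls turned on single libraries. Pfkl passed without cisplatin replicate 2 (0.0308), Tpi1 without cisplatin+PCN replicate 2 (0.0325), and Pkm without cisplatin replicate 2 (0.0319) or cisplatin+PCN replicate 2 (0.0210). By contrast Pfkp, at 6.47 ± 0.834 FPKM, and Pgk1, at 200.3 ± 4.76 FPKM, differed from cisplatin by 0.00 (interval -0.21 to 0.22) and 0.01 (interval -0.12 to 0.14).

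**Figure D2:**
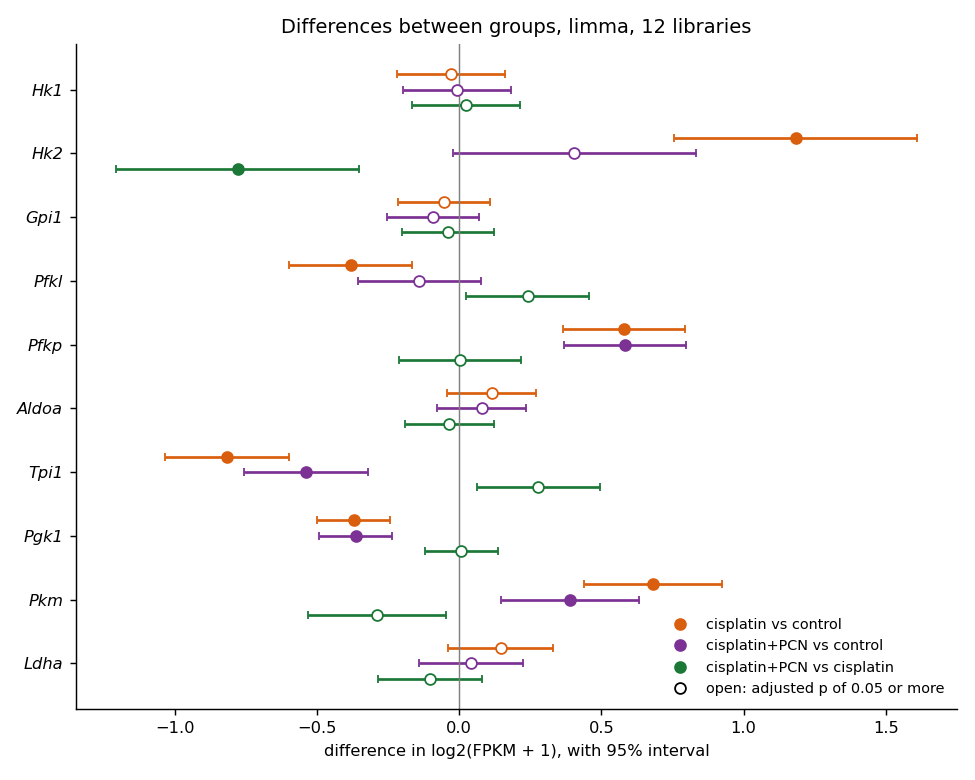
Differences in log2(FPKM + 1) between groups (x axis) for the 10 enzymes (y axis), for cisplatin against control (orange), cisplatin+PCN against control (purple) and cisplatin+PCN against cisplatin (green), with 95% intervals from the fit of 12 libraries. Filled points passed at an adjusted p under 0.05. Of the green points only that of Hk2 is filled, at -0.78, and the orange and purple points of Pfkp and Pgk1 lie close together.

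Against their matching groups without cisplatin, the mice given both drugs showed the same direction for Pfkp, Pkm, Tpi1 and Pgk1 as cisplatin alone did. The comparisons share libraries, so their values are given side by side and are not independent. With cisplatin+PCN against control 2 members were higher, Pfkp (0.58) and Pkm (0.39), and 2 were lower, Tpi1 (-0.54) and Pgk1 (-0.36), where 23% of all tested genes were higher and 23.6% lower. Hk2 did not pass there (0.40, adjusted p = 0.110), but did without cisplatin+PCN replicate 1 (0.59, adjusted p = 0.0219). With cisplatin+PCN against PCN 4 members were higher, Pfkp (0.62), Hk2 (0.59), Pkm (0.53) and Aldoa (0.21), and 2 were lower, Tpi1 (-0.46) and Pgk1 (-0.34), where 23.5% of all tested genes were higher and 23.4% lower. The calls of Hk2 (adjusted p = 0.0275) and Aldoa (0.0304) in that comparison did not hold throughout. For Hk2 the adjusted p was 0.0836 and 0.0789 without PCN replicates 2 and 3, and 0.107 and 0.0605 without cisplatin+PCN replicates 2 and 3. It was 0.0612 with no expression minimum and 0.0616 with only the groups compared. For Aldoa it was 0.0758, 0.0920 and 0.0584 without PCN replicates 1, 2 and 3, and 0.0568 and 0.0888 without cisplatin+PCN replicates 1 and 3, with 0.0502 and 0.0546 under those other settings.

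The test of the difference itself, the interaction of cisplatin and PCN, passed for 0 of the 10 members, and over all tested genes for 0.0739% higher and 0.0369% lower. The count over all genes was 10 higher and 5 lower, but 614 and 452 without cisplatin replicate 2, 287 and 206 without cisplatin+PCN replicate 2 and 2154 and 2161 with array weights. With array weights Hk2 (adjusted p = 0.0488) and Tpi1 (0.0263) passed. The largest interactions among the members were those of Hk2 (-0.59, interval -1.20 to 0.01, adjusted p = 0.268), Tpi1 (0.36, interval 0.05 to 0.67, adjusted p = 0.203) and Pfkl (0.28, interval -0.03 to 0.58, adjusted p = 0.296). That PCN acted differently in the injured kidney is thus not shown for any member with all libraries weighted alike.

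The makeup of several steps was described by the share of each isoenzyme gene in the summed FPKM of its step, per library. Shares and summed levels both depend on the gene lengths used. Over 18 comparisons of shares, an exact two-sided permutation test of 3 against 3 libraries cannot go below p = 0.1, and that smallest value was reached wherever groups did not overlap (adjusted p = 0.18).

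Among Hk1, Hk2, Hk3 and Hkdc1, Hk2 held a larger share with cisplatin than in control and Hk1 a smaller one. Hk1 held 93.8% ± 2.71 in control and 81.6% ± 1.46 with cisplatin (SD, n = 3, exact permutation p = 0.1). Hk2 held 2.37% ± 1.76 in control and 11.5% ± 1.23 with cisplatin, and 4.70% ± 2.21 with both drugs. Hkdc1, a hexokinase-like gene, rose by 0.64 (log2, adjusted p = 0.000826, limma), and like Hk2 it passed the expression minimum only through libraries with cisplatin. Hk3 stayed under the minimum. The summed level of Hk1, Hk2, Hk3 and Hkdc1 was 16.2 ± 1.08 FPKM in control and 18.2 ± 1.03 with cisplatin.

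The muscle form of phosphofructokinase, Pfkm, also fell. It had the highest FPKM of the 3 forms in control, but on the length of the longest coding transcript Pfkl stood above it (22.2 against 19.7 in control). Pfkm fell from 19.7 ± 0.959 to 6.98 ± 0.0983 FPKM (SD, n = 3, log2 change -1.37, adjusted p = 2.55e-07 by limma) and was higher with both drugs than with cisplatin, at 10.2 ± 1.41 FPKM (0.49, adjusted p = 0.00829, and 0.117 with only the groups compared). The summed level of the step fell from 36.3 ± 0.422 to 23.0 ± 2.20 FPKM, with 28.1 ± 0.680 with both drugs. The size of this fall depends on the deposited gene lengths. These are 3.23, 1.79 and 1.03 times the longest coding transcript for Pfkp, Pfkl and Pfkm. The share of Pfkp rose from 10.9% ± 0.610 to 28.0% ± 2.47 (exact permutation p = 0.1). With reads divided by the length of the longest coding transcript its share went from 23.0% ± 1.07 to 46.1% ± 3.39. The share of Pfkl was 35.0% ± 1.82 in control and 41.5% ± 3.87 with cisplatin, but on the longest transcript's length it went from 40.8% ± 1.71 to 37.9% ± 3.86, so its direction depends on the gene length used.

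**Figure D3:**
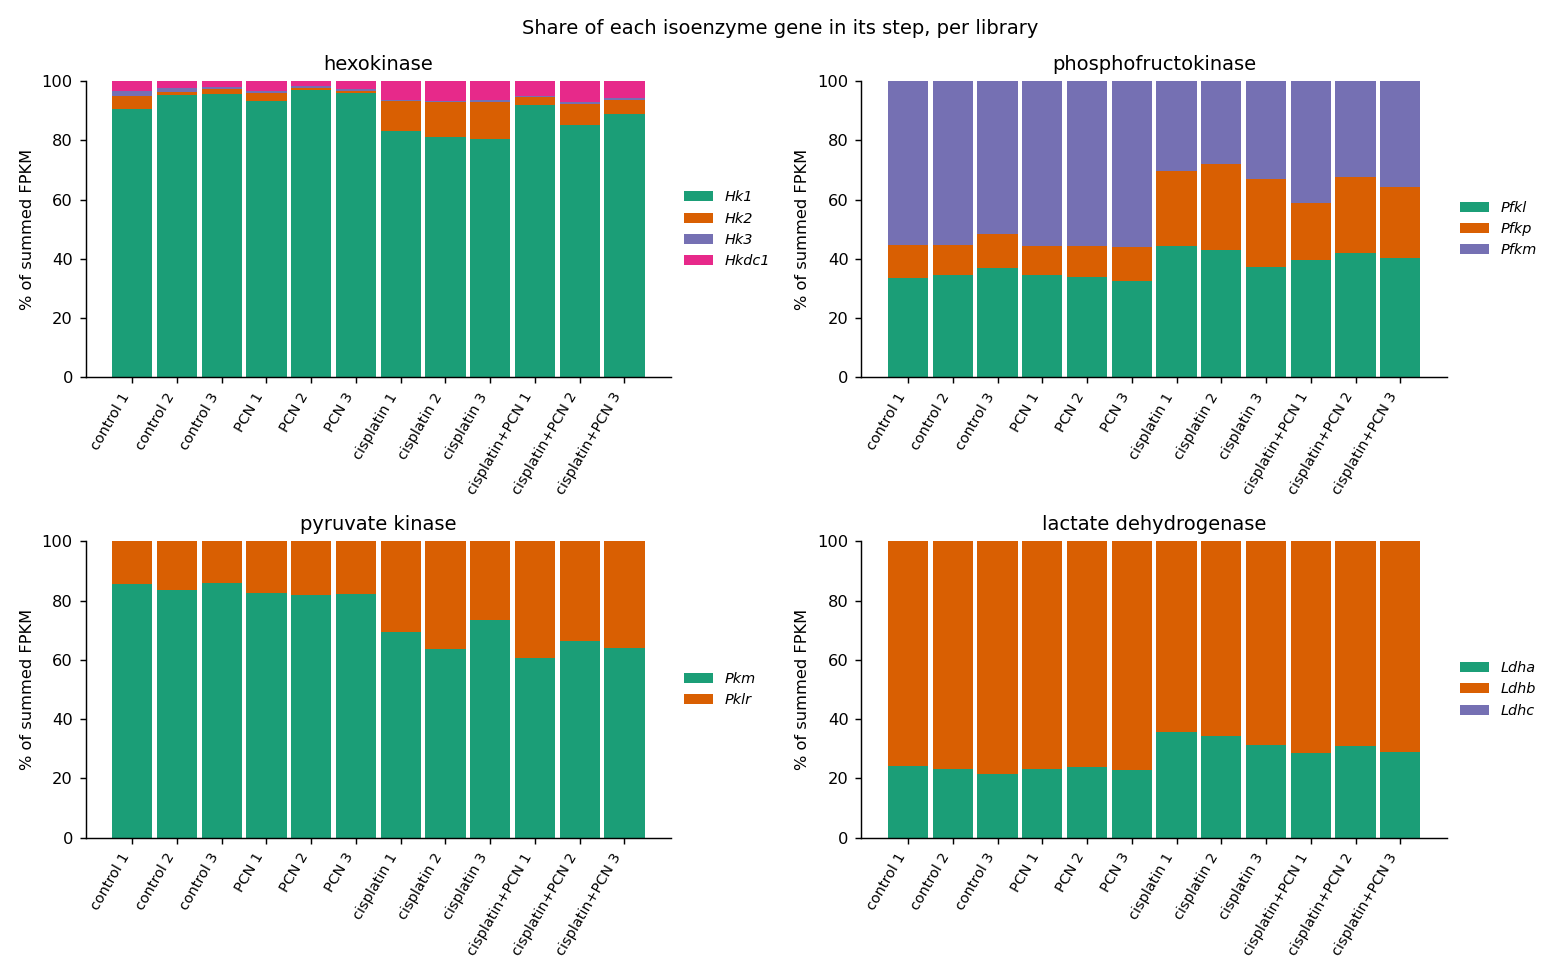
Percent of the summed FPKM of a step (y axis, 0 to 100) held by each isoenzyme gene (colours) in each of the 12 libraries (x axis), for hexokinase, phosphofructokinase, pyruvate kinase and lactate dehydrogenase. In the cisplatin libraries the bars of Hk2, Pfkp, Pklr and Ldha are taller than in every control library and that of Pfkm is shorter.

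Pyruvate kinase rose in both its genes, and by more in Pklr, the form of liver, proximal tubule and red cells. Pklr rose from 9.81 ± 0.816 to 40.6 ± 4.44 FPKM (SD, n = 3, log2 change 1.94, adjusted p = 3.20e-08 by limma). The share of Pkm was 85.0% ± 1.33 in control, 82.2% ± 0.199 with PCN, 68.8% ± 4.92 with cisplatin and 63.6% ± 3.00 with both drugs. The summed level of the step was 65.4 ± 2.22 FPKM in control, 130.7 ± 6.24 with cisplatin and 115 ± 12.04 with both drugs. Of the windows of Pklr 23.2% also occurred in transcripts of the neighbouring gene Hcn3.

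In the lactate dehydrogenase step Ldhb was lower with cisplatin while Ldha did not pass the test, so the share of Ldha was higher. Ldhb, the heart form, fell from 689.5 ± 7.59 to 446 ± 14.8 FPKM (SD, n = 3, log2 change -0.63, adjusted p = 9.17e-05 by limma). The share of Ldha went from 23.0% ± 1.33 to 33.8% ± 2.26 (exact permutation p = 0.1) and was 29.5% ± 1.32 with both drugs. The summed level of the step fell from 896 ± 5.85 to 675 ± 23.3 FPKM. Of the windows of Ldhb 27% also occurred in transcripts of Gm5514, and of those of Ldha 16.6% in transcripts of other genes. Some of their reads could belong to those.

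Of 16 other enzymes of the pathway, 13 were tested and 4 were higher and 5 lower with cisplatin, where 32% and 31.9% of all genes were. Besides Hkdc1 and Pklr, the enolase genes Eno1 and Eno3 were higher. Eno1 rose from 125 ± 4.62 to 182 ± 5.69 FPKM (SD, n = 3, log2 change 0.53), although 72.2% of its windows also occurred in transcripts of other genes. Eno3, the muscle form, rose by 0.22 (adjusted p = 0.0244, limma), a call lost with only the groups compared (0.0632) and without control replicate 1 (0.0643) or 2 (0.0713) or cisplatin replicate 1 (0.0686) or 3 (0.0875). The phosphoglycerate mutase of muscle, Pgam2, fell from 62.6 ± 6.92 to 25.6 ± 4.00 FPKM (-1.26), while Pgam1 did not pass (-0.20, adjusted p = 0.0788), except with array weights (0.00739) and without cisplatin replicate 2 (0.00401). Of the windows of Pgam1 41.5% also occurred in transcripts of other genes. The others that fell were Pfkm, Ldhb, Ldhd, which acts on D-lactate (-0.54), and Adpgk, an ADP-dependent sugar kinase gene (-0.24). Aldoc, an aldolase gene known from brain, did not pass (-0.05). Gapdh cannot be read as a level here, because 82.5% of its windows also occurred in transcripts of 222 other genes. It was listed at 2.12, 1.63 and 7.34 FPKM in control and at 2.59, 19.7 and 2.57 with cisplatin. With both drugs against cisplatin, 1 of the 13 was higher (Pfkm) and 0 lower.

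**Figure D4:**
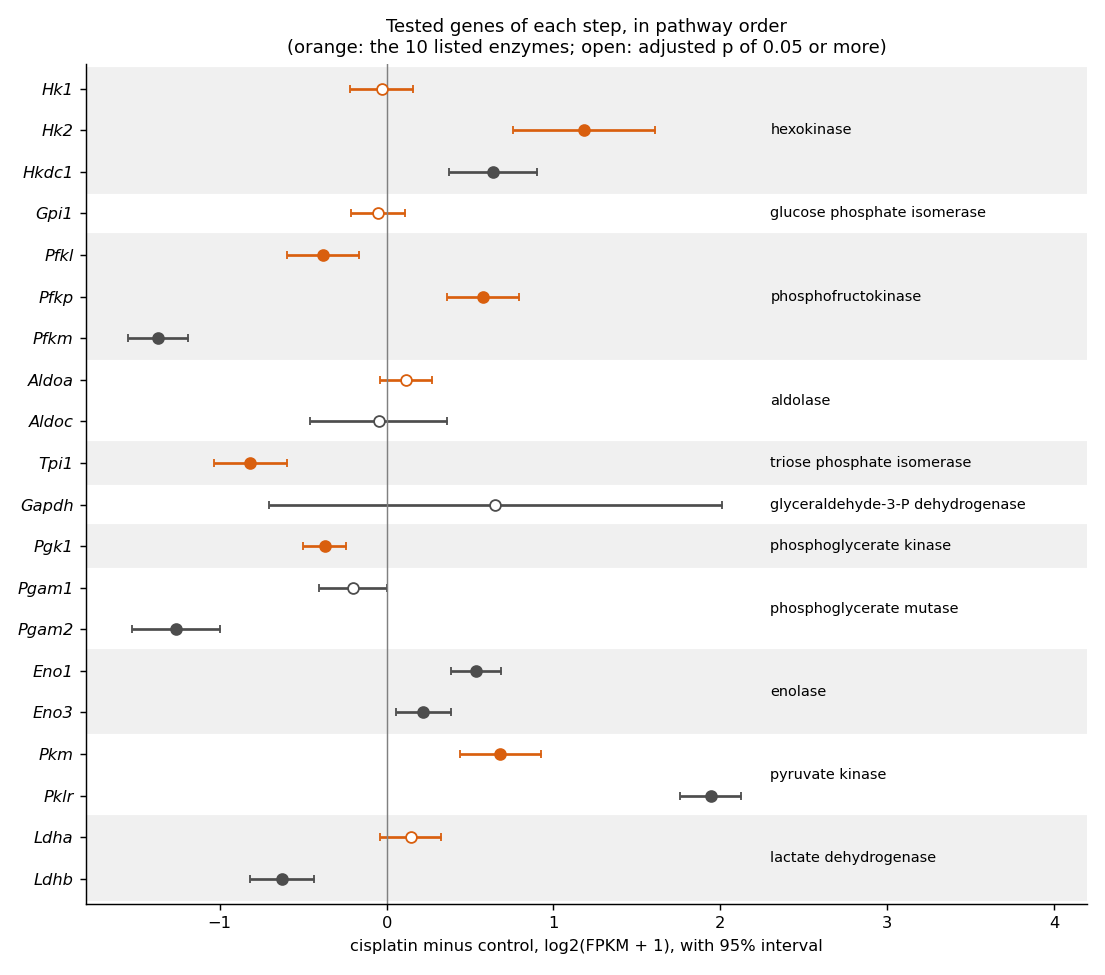
Cisplatin minus control in log2(FPKM + 1) (x axis, with 95% intervals from the fit of 12 libraries) for the tested genes of each step, from hexokinase at the top to lactate dehydrogenase at the bottom. Orange marks the 10 enzymes described here and grey the other genes of the same steps, and filled points passed at an adjusted p under 0.05. Phosphofructokinase holds genes that passed in both directions, while both pyruvate kinase genes lie above 0.

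Of 6 tested genes that set the flow through phosphofructokinase, 2 were higher and 2 lower with cisplatin, near the 32% and 31.9% of all genes. Pfkfb3, which makes the activator fructose 2,6-bisphosphate, rose from 4.39 ± 0.669 to 11.6 ± 2.62 FPKM (SD, n = 3, log2 change 1.21). Fbp2, the muscle fructose bisphosphatase gene, rose by 1.56. Fbp1, which catalyses the reverse step in glucose synthesis, fell from 684 ± 19.4 to 307 ± 52.6 FPKM (-1.17), and Pfkfb2 fell by 0.29.

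A list of 12 tested genes joined hypoxia-inducible factors and their regulators with the transcription factor genes Myc, Max and Mlxipl. Of these 12, 6 were higher and 2 lower with cisplatin, where 32% and 31.9% of all genes were. Max, among the higher (0.24), lost its limma call with no expression minimum (adjusted p = 0.0620), only the groups compared (0.0827) and a replicate block (0.0596). It was also lost without control replicate 1 or 3 or cisplatin replicate 1 or 3. Myc rose from 2.20 ± 0.0767 to 16.0 ± 2.38 FPKM (SD, n = 3, log2 change 2.40), Egln3, a prolyl hydroxylase gene, by 0.62, and Hif1a, the oxygen-regulated subunit, from 16.7 ± 1.48 to 24.9 ± 1.07 FPKM (0.55). Egln1 fell by 0.66. Hif1an, which hydroxylates the factor's activation domain, passed at -0.17 (adjusted p = 0.0436), a call lost in limma-voom (0.327), with rescaling (0.115), with no expression minimum (0.0563) and with only the groups compared (0.0741). Without control replicate 1 or 3 or cisplatin replicate 1, 2 or 3 its adjusted p was 0.148, 0.0861, 0.114, 0.0625 and 0.0613, and it was 0.0604 without PCN replicate 3 and 0.0579 without cisplatin+PCN replicate 3. With both drugs, Myc was lower than with cisplatin (-0.71, adjusted p = 0.0231 by limma), a call lost without cisplatin replicate 1 (0.0660) or 3 (0.0870) or cisplatin+PCN replicate 3 (0.0588), with no expression minimum (0.0596) and with only the groups compared (0.145). Of 16 tested hypoxia targets outside glycolysis 7 were higher and 3 lower, where 32% and 31.9% of all genes were. Egln3 is on both lists and counts as higher in both. Ndrg1 (0.74), also higher, lost its limma call with no expression minimum (adjusted p = 0.0570). The same held without control replicate 1 or 3 or cisplatin replicate 1 or 3. Among the higher were Ddit4 (3.53), Adm (1.77) and Bnip3 (0.93), the last not without control replicate 1 (adjusted p = 0.0739) or cisplatin replicate 1 (0.0755) or 3 (0.0781). Lower were Vegfa (-1.19), Car9 (-1.17) and P4ha1 (-1.06). The known targets thus did not move in 1 direction, and whether these factors took part in the members' changes was not tested.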

How the data were processed

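Kidney RNA libraries were compared from the FPKM table that the authors deposited. HISAT2 2.0.5, featureCounts 1.5.0-p3, DESeq2 1.16.1, edgeR 3.18.1 and build mm8 are named in the submitters' processing notes. Of 52636 identifiers 49909 (95.2%) have the same coordinates in GENCODE M21 for GRCm38, so coordinates are read as GRCm38. Whether counting used strand is not stated in the labels, so overlapping genes cannot be told apart. FPKM times gene length gave whole reads for 100% of nonzero values within 0.001.

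Groups came from library titles. limma 3.58.1 in R 4.3.3 was fitted with a trend to log2(FPKM + 1), for the 13540 genes that reached an FPKM of 1 in 3 or more of the 12 libraries, as 1 fit of 4 group means, with two-sided Benjamini-Hochberg adjusted p-values within each comparison. This scale understates changes of low genes. Shared sequence was the percent of 50-base windows of the longest coding transcript found in transcripts of other genes. Some genes fixed for the lists and shares are not reported here, and were left out of them. The procedure was tested on simulated data. All members were named, with fixed isoenzymes, up to 3 genes per direction from each other list, and the 2 genes most like Hk2, Pkm and Ldha. The members and lists were chosen with earlier results of these data known. Alternatives were other pseudocounts, minimums and scalings, array weights, limma-voom on recovered reads, a replicate block, only the groups compared, each library left out and, added after seeing the data, shares per length of the longest coding transcript.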

Additional observations from a re-analysis of the deposited data

Results flagged for a closer look

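Among the genes of the lists, Slc5a1, a sodium-glucose cotransporter gene of the late proximal tubule, moved with cisplatin in opposite directions without and with PCN. It stood at 20.1 ± 1.19 FPKM in control and 16.7 ± 2.47 with cisplatin (SD, n = 3), a log2 change of -0.27 (adjusted p = 0.0287 by limma), and at 20.2 ± 0.269 with PCN and 25.1 ± 1.54 with cisplatin+PCN, a change of 0.30 (adjusted p = 0.0242). The difference between these changes was 0.56 (interaction, adjusted p = 0.102), so it did not pass its own test, except with array weights (0.00133) and without cisplatin replicate 2 (0.0117). The call of the fall was lost when rescaled (adjusted p = 0.106), with only the groups compared (0.0765), in limma-voom (0.198) and without control replicate 1 (0.1004), cisplatin replicate 1 (0.0596) or 3 (0.112). That of the rise was lost without PCN replicate 1 (0.0525), 2 (0.0658) or 3 (0.0611) or cisplatin+PCN replicate 2 (0.0674) or 3 (0.0769).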

How the results depend on the processing

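Counts of members called moved mainly between the 2 injured groups. With cisplatin against control, 5 members were higher with array weights and 5 in limma-voom, against 3. Over all 13540 genes 4747 were higher and 4609 lower with array weights, against 4330 and 4319. In limma-voom, which took the assigned reads as library size, 4858 were higher and 3656 lower. The median log2 change over all genes was 0.099 there, against 0.009. With cisplatin+PCN against cisplatin, 0 members were lower with a pseudocount of 0.1, with no filter, at a mean FPKM of at least 5 (Hk2 not tested) or with only the groups compared, and array weights gave 2 lower and 2 higher, against 1 and 0. Leaving out a library gave 0 to 2 members lower and 0 to 1 higher. Over all genes 918 were lower with the pseudocount of 0.1, 560 of 31636 with no filter and 800 of 7469 at that mean, against 1031. With cisplatin+PCN against PCN, 2 members were higher with no filter or only the groups compared, and 2 to 4 with a library left out (2 without PCN replicate 2 or 3 or cisplatin+PCN replicate 3), against 4. Over all genes 3139 of 31636 were higher with no filter and 3120 with only the groups compared, against 3178. For the interaction array weights gave 1 member higher and 1 lower, against 0. Over single members and settings 1326 values kept their status, 18 gained a call and 20 lost one, and no called member value reversed. The 1326 include values uncalled both in the main fit and under the other setting. Among the other pathway genes Gpd1l, uncalled with cisplatin+PCN against cisplatin, was called in the opposite direction with array weights (-0.24). With a replicate block 3 members were higher and 3 lower with cisplatin. No pairing of the numbers is stated. Of 18 same-numbered pairs 4 had a correlation of deviations from the group mean over 0.1 (-0.281 to 0.366). Differently numbered pairs ranged from -0.401 to 0.328. With 3 libraries a group such correlations cannot decide whether samples were paired. Shares, in percentage points, moved as follows. On recovered reads the changes with cisplatin were -9.10 (Hk1), 6.85 (Hk2), -5.89 (Pfkl, reversed), 23.4 (Pfkp), 13.2 (Ldha) and -12.5 (Pkm). On transcript length they were -8.14 (Hk1), 5.38 (Hk2), -2.87 (Pfkl, reversed), 23.1 (Pfkp) and -11.1 (Pkm). Against Hkdc1 or Pfkm alone they were -4.75 (Hk1), 18.4 (Pfkl) and 31.1 (Pfkp). With both drugs against cisplatin, the other values were 1.11 (Hk1 against Hkdc1), 4.50 and -4.03 (Hk1 and Hk2, transcript length), 2.14 (Pfkl, reads), -4.77 (Pfkl against Pfkm) and -9.05 (Pfkp against Pfkm). With PCN it was -1.75 (Pkm, transcript length). The changed lengths and partners made these shares by construction. The causes of the other shifts were not tested. Hk2 in control rested on at most 73 reads, which limits its precision.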

Other observations

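Of 17 tested genes of the pathways that branch off glycolysis 8 were higher and 3 lower with cisplatin (32% and 31.9% of all genes, limma). Psat1, an enzyme of serine synthesis, rose from 10.5 ± 0.824 to 43.7 ± 3.17 FPKM (SD, n = 3, log2 change 1.96). Pgd, of the pentose phosphate pathway, rose from 15.0 ± 1.0 to 57.8 ± 7.80 FPKM (1.87), and Pgm1, a phosphoglucomutase gene, from 5.23 ± 0.151 to 15.7 ± 0.974 (1.42). Lower were Rpe (-0.44), Psph (-0.40) and Gfpt1 (-0.32), the last not in limma-voom (adjusted p = 0.0687). With both drugs against cisplatin 3 were lower, Taldo1 (-0.60), Pgm1 (-0.49) and Pgd (-0.38), and 0 higher, where 7.61% and 7.97% of all genes were. With only the groups compared none of the 3 passed (adjusted p = 0.126, 0.136 and 0.170). The call of Pgm1 was also lost without cisplatin replicate 1 (0.0510) or 3 (0.0870) or cisplatin+PCN replicate 1 (0.0639) or 3 (0.0755), and that of Pgd in most other settings, up to 0.113 without cisplatin replicate 1.

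Of 7 tested glucose and lactate transporters 2 were higher and 5 lower with cisplatin, where 32% and 31.9% of all genes were. The call of 1 of them, Slc5a1, was lost under several settings. The lactate transporter gene Slc16a1 rose from 6.00 ± 0.779 to 46.5 ± 7.02 FPKM (SD, n = 3, log2 change 2.76) and the glucose transporter gene Slc2a1 from 15.5 ± 1.45 to 48.5 ± 2.79 (1.59). Slc5a2, the glucose reabsorption gene of the proximal tubule and also on its marker list, fell by 2.67, Slc16a7 fell by 1.81 and Slc2a2 fell by 0.99. With both drugs against cisplatin, Slc16a7 (0.60) and Slc5a1 (0.57) were higher, with both calls lost, of the settings run, only in the fit of the groups compared (adjusted p = 0.117 for each). Slc16a1 (-0.41) and Slc2a1 (-0.65) were lower and Slc5a2 (0.90) and Slc2a2 (0.72) higher, but these 4 calls were lost with no expression minimum, with only the groups compared and without any 1 of several libraries. Without cisplatin+PCN replicate 3 their adjusted p was 0.137, 0.0987, 0.115 and 0.108.

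Of 10 genes of glucose synthesis and fructose entry 1 was higher with cisplatin, Tkfc (0.44), and 4 were lower, Glyctk (-2.65), Fbp1 (-1.17), Slc37a4 (-0.63) and Khk (-0.58), where 32% and 31.9% of all genes were. Slc37a4 did not pass without cisplatin replicate 2 (adjusted p = 0.0659). Pck1, which makes phosphoenolpyruvate for glucose synthesis, did not pass with cisplatin (0.30, adjusted p = 0.146 by limma), but did with quantile normalization (0.50, adjusted p = 0.00377), array weights (0.0285), limma-voom (0.0222) and without cisplatin replicate 2 (0.0458). It was higher with both drugs than with cisplatin (0.70, adjusted p = 0.0257), a name chosen after its value was seen. That call was lost with no expression minimum (0.0945), with only the groups compared (0.148) and without cisplatin replicate 1 (0.0653) or cisplatin+PCN replicate 1 (0.0598) or 3 (0.0567).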
